A study of Mus musculus with 3 samples.

Results

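The cells described here were absorptive enterocytes of the suckling mouse gut that held little RNA of Lgmn, the gene for the lysosomal protease legumain. They numbered 1316 of the 8391 cells of the library made 7 days after birth (P7), and of 28436 cells in the 3 libraries of the series. A P7 cell was taken when it held at least 3 molecules (UMIs, unique molecular identifiers) of Epcam, when Apoa4, Rbp2 and Fabp2 made up at least 2% of its UMIs, and when it held under 10 UMIs of Lgmn, under 5 of Muc2 and under 5 of Chga and Chgb together. The cells were thus chosen by their own levels of these genes, which are given as a description only. Of 6363 P7 cells with at least 3 Epcam UMIs, 2131 reached the lipid share, 1355 of those were under the Lgmn limit, 1323 also under the Muc2 limit and 1316 under all limits. They were compared with the 1316 P7 cells that held at least 3 Epcam and at least 10 Lgmn UMIs, called Lgmn-high here, whose equal number is a coincidence.

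All libraries came from the whole small intestine of wild type, untreated mice, at embryonic stages E15.5 and E17.5 and at P7, with 1 library per stage. Strain, sex and how many animals went into a library are not given in the sources used here, so the groups are pools of unknown make-up. Viable cells had been sorted either as Epcam+ or as lacking Epcam, CD31 (on endothelium) and CD45 (on blood cells), so the sort set the share of epithelial cells in a library. With 1 library there is no replicate error and no test: all cells compared at P7 share that library, and every interval below is at 95% and covers counting error only.

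Absorptive enterocytes of the small intestine take up fatty acids and monoacylglycerols from digested milk fat, rebuild them into triglyceride and export them on apolipoproteins as chylomicrons. In suckling rodents, enterocytes of the distal small intestine also take up whole milk proteins by endocytosis, through receptors such as cubilin, and digest them in large lysosomes that hold legumain and cathepsins. Both kinds of cell carry microvilli with membrane-bound hydrolases. Where along the intestine and how far up the villus a cell came from was not recorded in these libraries.

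The 3 libraries held 93501273 to 116038115 UMIs over 8391 to 11598 cells, with medians of 6262.5 to 14014 UMIs per cell. The low-Lgmn absorptive cells had a median of 17992.5 UMIs and 3977 detected genes, against 17852 UMIs and 4155.5 genes in the Lgmn-high cells, and mitochondrial genes took a median of 9.76% and 10.2% of their UMIs. The deposited barcode lists of the 3 libraries held the same 8447 names, which is not the number of cells at E17.5 or P7, so cells were told apart by column, and no cell of one library had a count profile identical to a cell of another. The doublet caller Scrublet marked 86 of the low-Lgmn absorptive cells (6.53%), 130 of the Lgmn-high cells (9.88%) and 389 of all P7 cells (4.64%), and none was removed from the values below.

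The 4 markers of the label were high in the chosen cells. Apoa4, an apolipoprotein of chylomicrons, was at 21656 CPM (21598 to 21714) over the summed cells, Apob, the scaffold protein of the chylomicron, at 1676 CPM (1660.0 to 1692), Fabp1, a fatty acid binding protein, at 15246 CPM (15197 to 15295) and Rbp2, the retinol carrier of enterocytes, at 16954 CPM (16902 to 17005). CPM are UMIs of the gene per 1000000 UMIs of the group, with exact Poisson intervals in brackets. In the 3731 remaining epithelial cells, those with neither a place in the chosen group nor 10 Lgmn UMIs, the same genes were at 1137, 261, 575 and 513 CPM. In the 1609 P7 cells without an Epcam UMI they were at 281, 22, 111 and 112 CPM. Apoa4 UMIs were found in 72.3% of those Epcam-negative cells, which had a median of 4467 UMIs, so a low count of such an abundant RNA does not mark a cell as an enterocyte.

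Cell by cell, the absorptive genes varied over a several-fold range. Per 10000 UMIs of a cell, Apoa4 had a median of 204, with 5% of cells under 71.1 and 5% over 411, and Fabp1 had a median of 154 (17.1 to 262 between the same limits). The 3 lipid genes of the rule together took a median of 6.13% of a cell's UMIs, well above the limit of 2%, with the same limits at 2.39% and 9.34%. Lgmn had a median of 1 UMI per cell and no UMI in 598 of the 1316 cells.

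**Figure D1:**
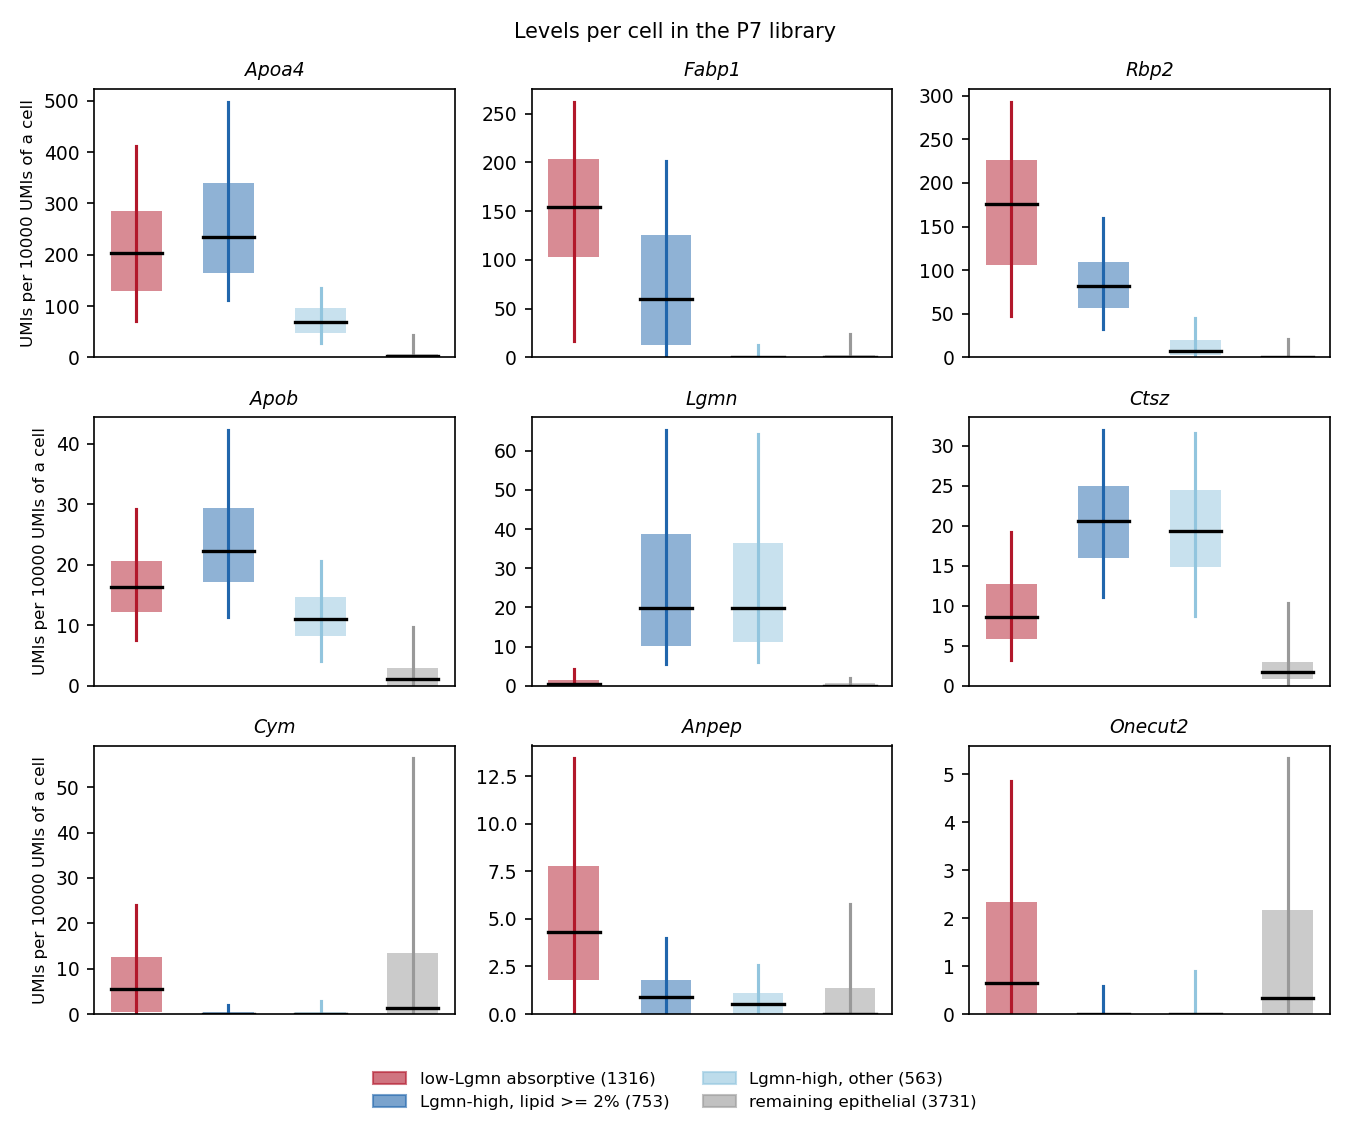
Levels per cell of 9 genes in 4 groups of P7 epithelial cells, as UMIs per 10000 UMIs of a cell (y axes, each from 0). Black lines are medians, boxes run from the 25th to the 75th percentile and vertical lines from the 5th to the 95th percentile over cells of 1 library. Apoa4 and Apob had higher medians in Lgmn-high cells with a lipid share of at least 2% than in the low-Lgmn cells. Anpep and Cym had their highest medians in the low-Lgmn cells. Cym reached higher in the remaining epithelial cells, with a 95th percentile of 56.4 against 24.0 in the low-Lgmn cells.

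The Lgmn-high cells were of mixed kind. Of them, 753 also met the lipid share and the Muc2 and Chga+Chgb limits, and are called lipid-rich here, and 563, called lipid-poor, did not. A cell over the Muc2 or the Chga+Chgb limit was thus called lipid-poor whatever its lipid share, and some of these had a share of at least 2%. The 3 lipid genes took a median of 4.55% of UMIs in the lipid-rich Lgmn-high cells and 6.13% in the low-Lgmn cells, so these groups share the limit of 2% but not the lipid share itself; the median was 1.10% in the lipid-poor cells. Apob was at 2360.3 CPM in the lipid-rich cells and at 1138 CPM in the lipid-poor ones, and Apoa4 at 26229 and 7567 CPM. The lipid-poor set took all Lgmn-high cells over the Muc2 or Chga+Chgb limit, so it held more goblet and enteroendocrine RNA in part by construction. The 8 goblet marker genes summed to 2350.0 CPM in it, against 254 in the lipid-rich cells and 167 in the low-Lgmn cells. The enteroendocrine markers summed to 761, 78.4 and 46.3 CPM. Because the Lgmn-high cells were mixed, each list is counted against the whole Lgmn-high group and also against its lipid-rich cells. Both comparisons share the low-Lgmn cells and the 753 lipid-rich cells and are not independent.

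Cells just inside and just outside the limits of the rule had these levels. The 67 chosen cells with 8 or 9 Lgmn UMIs had 1565 CPM of Ctsz, another lysosomal protease, and 23737 CPM of Apoa4, and the 56 excluded cells with 10 or 11 Lgmn UMIs had 1770 and 25082 CPM. The 29 chosen cells with a lipid share of 2.0 to 2.2% had 1210 CPM of Apob, against 1187 CPM in 36 otherwise eligible cells with 1.8 to 2.0%, and 1043 and 671 CPM of Ctsz.

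Against the Lgmn-high cells, 7387 genes reached a mean of 10 CPM over the pair of groups. Of these, 219 (2.96%) were at least 2-fold higher in the low-Lgmn absorptive cells and 420 (5.69%) at least 2-fold lower, and the median log2 ratio over all of them was −0.08. Since Lgmn chose the cells of both groups, these counts describe the groups and test nothing. Against the lipid-rich cells, 236 of 7265 genes (3.25%) were at least 2-fold higher and 323 (4.45%) at least 2-fold lower, with a median of −0.02.

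The highest ratios, among genes with a mean of at least 50 CPM and UMIs in at least 25% of the cells of the higher group and leaving out the genes of the rule, belonged to genes of several kinds. Log2 ratios of low-Lgmn over Lgmn-high cells are given with exact conditional binomial intervals. Cyp2d26, a cytochrome P450, was at 145 CPM in the low-Lgmn cells and 8.93 CPM in the Lgmn-high cells, a log2 ratio of 4.02 (3.82 to 4.22). Mme, the brush border peptidase neprilysin, was at 191 and 11.8 CPM (4.02, 3.84 to 4.19). Ltc4s, which makes leukotriene C4, was at 96.9 and 6.28 CPM (3.95, 3.71 to 4.19). These were RNAs found in most of the chosen cells: UMIs of Cyp2d26 were in 69.6%, of Mme in 69.8% and of Ltc4s in 59.7% of them.

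Cda, which deaminates cytidine, had a log2 ratio of 3.78 (3.60 to 3.95), the uncharacterised gene 2210407C18Rik of 3.69 (3.53 to 3.85), Ppa1, an inorganic pyrophosphatase, of 3.24 (3.15 to 3.33), and Mfsd2a, a transporter of lysophospholipids, of 3.03 (2.89 to 3.18). Cym, the gene of the milk-clotting protease chymosin, was at 787 CPM against 98.8 CPM (2.99, 2.93 to 3.05). Onecut2, a transcription factor gene, and Slc27a2, an acyl-CoA synthetase, complete the 10 highest and are described with their lists below. All of the 10 except Cym were below the CPM limit of this ranking in the Lgmn-high cells. Those genes passed the limit only through the low-Lgmn cells and so had to differ. All 10 were also over 2-fold higher against the lipid-rich cells, where the log2 ratio of Mfsd2a was 2.34 and that of 2210407C18Rik 4.18.

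The lowest ratio by the same criteria was that of Afp, alpha-fetoprotein, at 4.2 CPM against 373 CPM (−6.48, −6.77 to −6.20). Much of its RNA lay in the lipid-poor Lgmn-high cells (737 CPM), and against the lipid-rich cells (117 CPM) the log2 ratio was −4.81. Scd2, a stearoyl-CoA desaturase, followed the same course, with a log2 ratio of −4.74 (−4.99 to −4.51) against all Lgmn-high cells and −1.81 against the lipid-rich ones. Gpx3, a secreted glutathione peroxidase, differed to about the same extent in both comparisons, at 502 CPM in the low-Lgmn cells, 6596 in all Lgmn-high cells and 6236 in the lipid-rich ones, a log2 ratio of −3.72 (−3.74 to −3.69) and −3.64 (−3.66 to −3.61).

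The other genes among the 10 lowest were Bex4 (−3.61), 3300005D01Rik (−3.53), Aph1c, a subunit of gamma-secretase (−3.40), Tmigd1, a cell adhesion protein (−3.40), Lgals3, galectin-3 (−3.35), Fcgbp, a mucus protein of goblet cells (−3.01), and Guca2a, the precursor of guanylin (−3.00, at 434 CPM against 3465). All of the 10 except Gpx3 and Guca2a were below the same CPM limit in the low-Lgmn cells. Those genes passed the limit only through the Lgmn-high cells and so had to differ. Fcgbp had a log2 ratio of −1.45 against the lipid-rich cells, beside the goblet cell RNA in the rest of the Lgmn-high group given above; the part of that RNA in the ratio was not tested. Against the lipid-rich cells Enpp3, an ectonucleotide pyrophosphatase, stood lowest by the same criteria, at 2.69 CPM against 115 CPM (−5.42, −5.79 to −5.06). Enpp3 passed the limit only through the lipid-rich cells and so had to differ.

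**Figure D2:**
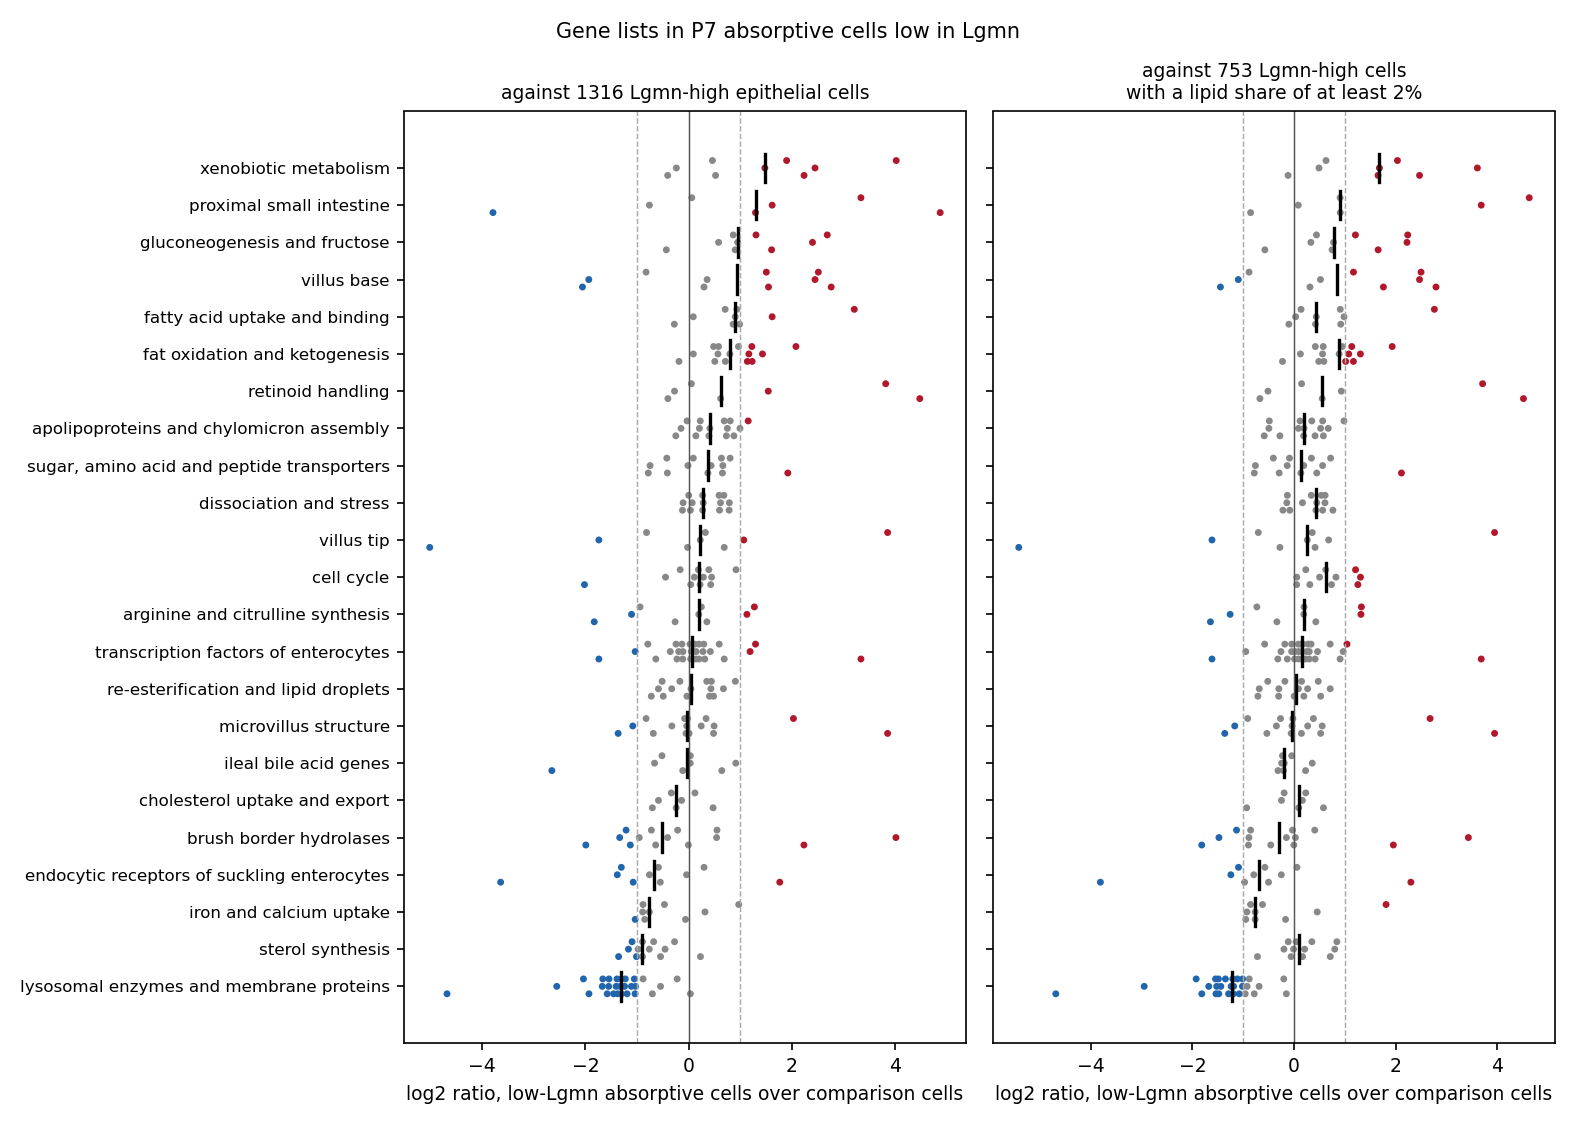
Log2 ratios (x axes) of the genes of 23 lists (rows) in low-Lgmn absorptive cells over all Lgmn-high epithelial cells (left) and over lipid-rich Lgmn-high cells (right). Each point is a gene with a mean of at least 10 CPM, red where it was at least 2-fold higher and blue where at least 2-fold lower (dashed lines), and black bars are list medians. Lysosomal genes lie to the left in both panels, and sterol synthesis genes lie to the left only in the left panel.

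The genes that carry fat through the enterocyte were mostly at similar levels in low-Lgmn and Lgmn-high cells, with the cytosolic carriers higher in the low-Lgmn cells. Of 9 tested genes for fatty acid uptake and binding, 2 were at least 2-fold higher and none lower, with a median log2 ratio of 0.90. These were Fabp1, at 15246 CPM against 4966 (1.62, 1.61 to 1.63), and Slc27a2, which activates very long chain fatty acids, at 92 CPM against 9.95 (3.21, 3.02 to 3.41). Slc27a2 passed the level filter only through the low-Lgmn cells and so had to differ. Fabp2, the intestinal fatty acid binding protein gene that the rule reads, was at 21221 and 10691 CPM. Acsl3, an acyl-CoA synthetase, had the lowest ratio of the list (−0.28, −0.35 to −0.21). The tenth gene of the list, Scarb1, was under the filter.

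Within the Lgmn-high group the level of Fabp1 was 8109 CPM in the lipid-rich cells and 504 CPM in the others. Its log2 ratio against the lipid-rich cells was 0.91 (0.90 to 0.92), so that it was no longer 2-fold higher there, and 1 of 9 tested genes of the list (Slc27a2, 2.76) was past 2-fold, with a median of 0.44.

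None of 15 tested genes for re-esterification and lipid droplets passed 2-fold in either direction (median 0.05). Cideb, a droplet protein that also serves lipoprotein lipidation, was highest, at 315 CPM against 168 (0.91, 0.85 to 0.96), and Lpin2, a phosphatidate phosphatase, lowest (−0.72, −0.85 to −0.60). The acyltransferase genes Mogat2 and Dgat2, which join fatty acids to monoacylglycerol and diacylglycerol, were at 447 and 1018 CPM, with log2 ratios of 0.68 and 0.41. None of 14 tested passed 2-fold against the lipid-rich cells either, where the median was again 0.05.

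Of 15 tested apolipoprotein and chylomicron assembly genes, 1 was at least 2-fold higher and none lower (median 0.41). It was Apobec1, the enzyme that edits the Apob transcript, at 35.8 CPM against 16.1 (1.15, 0.98 to 1.33). Apoc2, the activator of lipoprotein lipase, lay just under 2-fold, at 8774 CPM against 4401 (1.00, 0.98 to 1.01). Mttp, which loads lipid onto the Apob protein, was at 1149 and 626 CPM (0.88, 0.85 to 0.91). Apoa1, an apolipoprotein shared with high-density lipoprotein, was lowest in the list, at 15493 CPM against 18396 (−0.25, −0.25 to −0.24).

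Against the lipid-rich cells, 4 genes of this list were higher in the Lgmn-high cells: the log2 ratio was −0.59 for Apoa1, −0.49 for Apob, −0.48 for Apoc3 and −0.28 for Apoa4. The other 11 of the 15 tested genes had ratios above 0, among them Apoc2 (0.35) and Mttp (0.52), the median was 0.20 and none passed 2-fold. The sign of the Apoa4 difference therefore depended on which Lgmn-high cells were compared. Apoa4 is one of the genes the lipid share is made of, so its level is a description only.

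Of 7 tested genes for retinoid handling, 3 were at least 2-fold higher and none lower (median 0.62). Rbp2 itself was at 16954 CPM against 5819 (1.54, 1.53 to 1.55), a gene the rule reads. Aldh1a1, which oxidises retinal to retinoic acid, was at 92 CPM against 6.53 (3.82, 3.59 to 4.06), and Rdh7, a retinol dehydrogenase, at 31.8 CPM against 1.43 (4.48, 3.99 to 5.01). The last 2 passed the filter only through the low-Lgmn cells. Dhrs3, which reduces retinal back to retinol, had the lowest ratio (−0.40, −0.51 to −0.30), and Lrat, which esterifies retinol, was at 77.6 and 93.7 CPM (−0.27). In the comparison with the lipid-rich cells 2 of 7 tested genes were 2-fold higher and none lower (median 0.56), and both passed the filter only through the low-Lgmn cells.

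The rule genes Rbp2 and Fabp2 are shown with their promoters because each holds, in its 250 bases upstream of the RefSeq start, 1 match to the letters CAAAGTNCA on either strand, a form of the element bound by HNF4, a nuclear receptor of absorptive enterocytes. The match is in capitals, and both stretches lie upstream of the gene's annotated RefSeq start on the plus strand (RefSeq, GRCm38.p6): chr9:98490381-98490499 for Rbp2, where the longer Rbp2 gene model of GENCODE begins further upstream so that this stretch is intronic in it, and chr3:122894880-122894998 for Fabp2, upstream of its gene model.
Rbp2: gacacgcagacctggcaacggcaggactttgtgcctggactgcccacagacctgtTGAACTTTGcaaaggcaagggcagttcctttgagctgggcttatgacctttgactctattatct
Fabp2: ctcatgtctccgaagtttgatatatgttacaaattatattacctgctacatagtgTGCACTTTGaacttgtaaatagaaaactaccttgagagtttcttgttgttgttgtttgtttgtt
The match begins 101 bases before the start of Rbp2 and 137 bases before that of Fabp2. Over windows of 300 bases, the letters were in 7 of the 170 genes at least 2-fold higher against Lgmn-high cells that had a promoter in the table (4.12%), in 4 of 326 lower genes (1.23%), in 79 of 5949 tested genes (1.33%) and in 1.41% of all 27025 promoters. The 7 genes were Apobec1, Btnl2, Cd302, Cyp2d26, Rbp2, Tkfc and Trim31, of which Rbp2 is read by the rule and Cyp2d26 passed the level filter only through the low-Lgmn cells. This was 1 of 4 motifs counted, each on both strands. The letters AGATAA, bound by GATA factors, were in 17 of the 170 higher genes, 33 of the 326 lower (10.1%) and 378 of the 5949 tested (6.35%). The letters TTTATG, bound by CDX factors, were in 14 (8.24%), 19 (5.83%) and 348 (5.85%) of them, and TCACGTG, an E-box found in lysosomal genes, in 7 (4.12%), 33 (10.1%) and 444 (7.46%). These are counts of letters in windows, with no measure of binding.

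Several genes for burning fat and using fructose were higher in the low-Lgmn absorptive cells. Of 15 tested genes for fat oxidation and ketogenesis, 6 were at least 2-fold higher and none lower, with a median log2 ratio of 0.80 against −0.08 over all tested genes.

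Among the higher genes were Acadvl, the dehydrogenase for very long chain acyl-CoA (1.43, 1.36 to 1.51), Hadha and Hadhb, the subunits of the mitochondrial trifunctional protein (1.23 and 1.14), Acaa2, a thiolase (1882 CPM against 805, 1.22, 1.20 to 1.25), and Cpt2, which passes acyl groups to CoA inside the mitochondrion (1.17, 1.08 to 1.25). Against the lipid-rich cells the list again had 6 higher and none lower of 15, with a median of 0.89.

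Of 9 tested genes for gluconeogenesis and fructose use, 4 were at least 2-fold higher and none lower (median 0.95). Khk, ketohexokinase, was at 271 CPM against 51.3 (2.40, 2.31 to 2.49), Tkfc, which phosphorylates the glyceraldehyde made from fructose, at 212 against 69.5 (1.61, 1.53 to 1.69), and Gpd1, a glycerol-3-phosphate dehydrogenase, at 297 against 120.0 (1.31, 1.24 to 1.37). Slc2a5, the fructose transporter, was low in both groups (24.9 and 3.87 CPM, 2.69, 2.37 to 3.01) and passed the filter only through the low-Lgmn cells. Pck1, which makes phosphoenolpyruvate, was at 1125 and 583 CPM (0.95, 0.92 to 0.98), and Fbp1, fructose-1,6-bisphosphatase, had the lowest ratio, at 682 against 919.6 CPM (−0.43, −0.46 to −0.40). Of the 9 genes 4 were also higher and none lower against the lipid-rich cells (median 0.78).

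The arginine and citrulline list was split. Otc, which makes citrulline, was at 211 CPM against 96.4 (1.13, 1.06 to 1.20). Ass1 and Asl, the enzymes that turn citrulline into arginine, were lower: Ass1 was at 266 CPM against 571 (−1.10, −1.15 to −1.06) and Asl at 96.7 against 343 (−1.83, −1.89 to −1.76). Thus 2 of 9 tested genes were at least 2-fold higher and 2 at least 2-fold lower (median 0.20), and the log2 ratios of Otc, Ass1 and Asl against the lipid-rich cells were 1.32, −1.26 and −1.64, with 2 higher, 2 lower and a median of 0.19 over 9 tested genes.

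Sterol synthesis genes were lower than in the whole Lgmn-high group but not than in its lipid-rich cells. Of 13 tested genes, 4 were at least 2-fold lower and none higher (median −0.89). Among them were Fdps (−1.01, −1.10 to −0.92), Fdft1 (−1.10, −1.25 to −0.94) and Sqle (−1.36, −1.59 to −1.12), which make farnesyl diphosphate, squalene and squalene epoxide. Sqle, at 8.51 CPM against 21.8, passed the filter only through the Lgmn-high cells and so had to differ. Pmvk, phosphomevalonate kinase, had the highest ratio (0.23, 0.08 to 0.38). Against the lipid-rich cells none of 12 tested genes passed 2-fold and the median was 0.11. The summed level of the 15 genes was 374 CPM in the low-Lgmn cells, 339 CPM in the lipid-rich cells and 1041 CPM in the lipid-poor Lgmn-high cells.

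None of 7 tested genes for cholesterol uptake and export passed 2-fold (median −0.24). Soat2, which esterifies cholesterol, had the highest ratio (0.47, 0.36 to 0.59) and Npc1l1, the cholesterol uptake protein of the brush border, the lowest, at 116 CPM against 189 (−0.70, −0.77 to −0.63). None of 7 passed 2-fold against the lipid-rich cells, where the median was 0.09.

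At the brush border, the peptidases diverged in both directions. Of 14 tested hydrolase genes, 2 were at least 2-fold higher, Mme (above) and Anpep, aminopeptidase N, at 513 CPM against 109 (2.23, 2.17 to 2.29). The 4 at least 2-fold lower were Naaladl1, at 40.7 CPM against 162 (−1.99, −2.09 to −1.89), Mep1a, a meprin subunit (−1.33, −1.38 to −1.29), Ace, angiotensin-converting enzyme (−1.21, −1.26 to −1.16), and Enpep, glutamyl aminopeptidase (−1.13, −1.19 to −1.07). The median over the list was −0.52. Lct, lactase, was at 745 CPM against 511, and at 746 CPM in the lipid-rich cells, a log2 ratio of −0.00 (−0.04 to 0.03) there. Sis, sucrase-isomaltase, a gene of weaned animals, was at 2.08 CPM and under the filter. Mme and Anpep (1.96) were again higher and Naaladl1 (−1.81), Ace (−1.48) and Enpep (−1.13) lower against the lipid-rich cells, of 14 tested (median −0.30).

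Of 16 microvillus and keratin genes, 2 were higher and 2 lower (median −0.03, which turned to 0.05 when the median ratio of all genes was set to 1). Krt20 was at 59 CPM against 4.08 (3.85, 3.56 to 4.16) and Krt19 at 304 against 74.5 (2.03, 1.96 to 2.10), and Krt20 passed the filter only through the low-Lgmn cells. The lower ones were Cdhr2 (−1.36, −1.41 to −1.32) and Cdhr5 (−1.08, −1.11 to −1.06), the cadherins that link microvilli at their tips. Vil1, villin, was at 542 and 429 CPM. Of these 16, 2 were higher and 2 lower against the lipid-rich cells (median −0.03).

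Of 13 tested transporters of sugars, amino acids and peptides, 1 was at least 2-fold higher and none lower (median 0.37). It was Slc6a20a, a proline transporter, at 35.2 CPM against 9.3 (1.92, 1.71 to 2.14), which passed the filter only through the low-Lgmn cells. Slc36a1, a proton-coupled amino acid transporter, had the lowest ratio (−0.78, −0.95 to −0.61). The glucose transporters Slc5a1 and Slc2a2, of the apical and basolateral side, had log2 ratios of 0.37 and 0.64. Of 13 tested against the lipid-rich cells, 1 was higher and none lower (median 0.13).

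Of 9 tested iron and calcium genes, none was 2-fold higher and 1 was 2-fold lower, Vdr, the vitamin D receptor gene, at 10.6 CPM against 21.7 (−1.03, −1.25 to −0.82). Tfrc, the transferrin receptor, had the highest ratio (0.97, 0.84 to 1.10). Slc11a2 and Slc40a1, the apical iron importer and the basolateral exporter, were at 138 and 284 CPM against 248 and 481 CPM, short of 2-fold. Tfrc (1.81, 1.62 to 2.01) was 2-fold higher against the lipid-rich cells, as 1 of 9 tested, and none was lower (median −0.76).

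Among xenobiotic metabolism genes, 5 of 9 tested were at least 2-fold higher and none lower (median 1.48). Beside Cyp2d26 these were Gstm3 (2.45, 2.16 to 2.75), Cyp3a25 (2.24, 1.99 to 2.49), Ces2a, a carboxylesterase (1.90, 1.69 to 2.11), and Gstm1 (1.48, 1.29 to 1.67). Of the 9, 4 passed the filter only through the low-Lgmn cells, so this count is in part set by the filter, and the 7 other genes of the list were under it. Genes of the Gstm, Cyp3a and Cyp2d families have close copies, between which 3′ reads may have been split. Gsta1 had the lowest ratio (−0.40, −0.64 to −0.17). Of 8 tested against the lipid-rich cells, 5 were higher and none lower (median 1.67), 3 of the 8 passing only through the low-Lgmn cells.

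The lysosomal genes were lower as a group. Of 28 tested genes, 23 were at least 2-fold lower in the low-Lgmn absorptive cells and none higher, with a median log2 ratio of −1.32; against the lipid-rich cells 21 of 28 were lower and the median was −1.22. Lgmn itself chose the cells, and genes that vary with it were bound to differ. Ctsl, cathepsin L, was at 1381 CPM against 8106 (−2.55, −2.57 to −2.54) and at 10652 CPM in the lipid-rich cells. Ctsb, cathepsin B, was at 682 against 2032 CPM (−1.58, −1.60 to −1.55), and Ctsz, cathepsin Z, at 968 against 1985 CPM (−1.04, −1.06 to −1.01).

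Ctsa, protective protein and cathepsin A, was at 435 CPM against 1376 (−1.66), Neu1, a sialidase, at 408 against 1026 (−1.33), and Lamp1, a lysosomal membrane protein, at 701 against 1428 (−1.03). Scarb2, the receptor that carries glucocerebrosidase to lysosomes, had the highest ratio (0.04, −0.08 to 0.15). The low-Lgmn cells were not without these RNAs: against the remaining epithelial cells 18 of 27 tested lysosomal genes were at least 2-fold higher, a direction in which 899 of 7910 genes (11.4%) were, and none was lower. The summed level of the list was 2580.2 CPM in the remaining epithelial cells, 8043 in the low-Lgmn cells and 26891 in the Lgmn-high cells, so the low-Lgmn absorptive cells stood between them.

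Receptors of endocytosis held a similar place. Of 10 tested genes, 4 were at least 2-fold lower and 1 higher (median −0.67). Cubn, cubilin, was at 100.5 CPM against 262 (−1.38, −1.45 to −1.31), Amn, its membrane anchor, at 494 against 1040.1 (−1.07, −1.10 to −1.04), Dab2, their clathrin adaptor, at 275 against 679 (−1.30, −1.34 to −1.26), and Lrp2, megalin, at 2.53 against 31.5 (−3.64, −4.04 to −3.27). Lrp2 passed the level filter only through the Lgmn-high cells and so had to differ, here and against the lipid-rich cells. The higher gene was Pigr, the receptor that carries polymeric immunoglobulin to the lumen, at 126 against 37.2 (1.77, 1.66 to 1.87). Fcgrt, the neonatal receptor that takes up maternal IgG from milk, was high in both, at 3861 and 3138 CPM (0.30, 0.29 to 0.31), and 4585 CPM in the lipid-rich cells (−0.25). In that comparison 3 of 10 were lower, Lrp2 (−3.81), Cubn (−1.24) and Dab2 (−1.09), and Pigr (2.30) was higher (median −0.68).

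Among genes that mark position along the gut, some proximal ones differed between the groups, while 7 of 8 tested ileal bile acid genes stayed within 2-fold. Of 7 tested genes of the proximal small intestine, 4 were at least 2-fold higher in the low-Lgmn cells and 1 lower (median 1.30). Onecut2 was at 133 CPM against 13.2 (3.34, 3.17 to 3.51). It had a UMI in 57.1% of the low-Lgmn and 9.57% of the Lgmn-high cells. When each cell was thinned to 5000 UMIs (18 and 4 shallower cells left out), these shares were 36.3% and 4.12%. Among thinned Epcam-negative cells the share was 0.998%. Without thinning, 50.4% of the 3731 remaining epithelial cells also held a Onecut2 UMI, so it was not particular to the low-Lgmn cells. Gata4, a factor of the jejunum and duodenum, was at 35.4 CPM against 14.4 (1.30, 1.12 to 1.48), and 0.91 against the lipid-rich cells, where it was short of 2-fold.

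Adh6a, an alcohol dehydrogenase, was at 43 CPM against 1.47 (4.87, 4.39 to 5.39) and passed the filter only through the low-Lgmn cells, and Fabp1 was the other higher gene. Cck, a hormone of enteroendocrine cells, was the lower one (5.7 CPM against 78.8, −3.79, −4.05 to −3.54), beside the enteroendocrine RNA given above, and had a log2 ratio of −0.29 against the lipid-rich cells. Cck passed the filter only through the Lgmn-high cells, where 1 cell held 864 of its 1932 UMIs. Without the highest cell of each group its log2 ratio was −2.98. Of 6 tested genes of the list, Onecut2 and Adh6a were higher against the lipid-rich cells and none was lower (median 0.91). Pdx1, a duodenal factor, was at 7.78 CPM against 1.02 and under the filter.

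Of 8 tested ileal bile acid genes, 1 was at least 2-fold lower and none higher (median −0.04, or 0.04 with the median ratio of all genes set to 1). Fabp6, the ileal bile acid binding protein, was at 23.7 CPM against 149 (−2.65, −2.78 to −2.52); its RNA lay mostly in the lipid-poor Lgmn-high cells (320.2 CPM). Among the low-Lgmn cells 4.86% held a Fabp6 UMI and 1 cell held 295 of the 582 UMIs; without the highest cell of each group Fabp6 was at 11.7 CPM against 136 CPM, a log2 ratio of −3.53. The log2 ratio of Fabp6 against the lipid-rich cells, of which 1 held 186 of 399 UMIs, was −0.23. It was −1.24 without the highest low-Lgmn cell, 0.67 without the highest lipid-rich cell and −0.34 without both, so its sign and size there rest on single cells. Fgf15, the ileal hormone induced by bile acids, did not separate the groups, at 84.3 and 82.4 CPM (0.03, −0.06 to 0.12). Nr0b2, a bile acid responsive repressor, had the highest ratio (0.91, 0.73 to 1.10). None of 8 passed 2-fold against the lipid-rich cells (median −0.20). Slc10a2, the ileal bile acid importer, was at 0.326 CPM, under the filter.

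Of 31 tested transcription factor genes of enterocytes, 3 were at least 2-fold higher and 2 lower (median 0.07). Beside Onecut2 and Gata4, Ppargc1b, a coactivator of fat oxidation genes, was higher, at 31.9 CPM against 14 (1.19, 1.01 to 1.38). Klf4, a factor of differentiated and goblet cells, was at 27.9 CPM against 92.9 (−1.74, −1.86 to −1.61), and Vdr was the other lower gene. Hnf4a and Cdx2, which specify the intestinal epithelium, were at 116 and 154 CPM against 132 and 147 CPM. Maf had a log2 ratio of −0.63, and Tfeb, a regulator of lysosomal genes, of 0.04 (−0.09 to 0.17). Onecut2 and Ppargc1b (1.04) were higher and Klf4 (−1.61) lower against the lipid-rich cells, of 31 tested (median 0.15).

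The low-Lgmn cells were not uniform below the Lgmn limit. Their 598 cells with no Lgmn UMI, 395 with 1 or 2, 181 with 3 to 5 and 142 with 6 to 9 had medians of 17134.5 to 19569.5 UMIs. Onecut2 stood at 202, 126, 29.2 and 32.5 CPM in these bins in turn, and Cym at 1129.8, 818, 215 and 171 CPM. Both were thus several-fold lower where Lgmn reached 3 UMIs. Genes of protein uptake ran the other way: Dab2 stood at 168, 281, 437 and 449 CPM, Cubn at 59.9, 99.5, 164 and 171 CPM, and Ctsz at 728, 907, 1362 and 1500.2 CPM.

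Ass1 went with them, at 171 CPM in cells with no Lgmn UMI and 452 CPM in those with 6 to 9. Rbp2 was at 18926 CPM in the first bin and 12107 in the last, while Apoa4 was at 19877 and 25014 CPM and Fabp1 at 15392 and 14085 CPM. Gata4 stayed between 29.5 and 38.7 CPM in all 4 bins. The bins are a description.

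**Figure D3:**
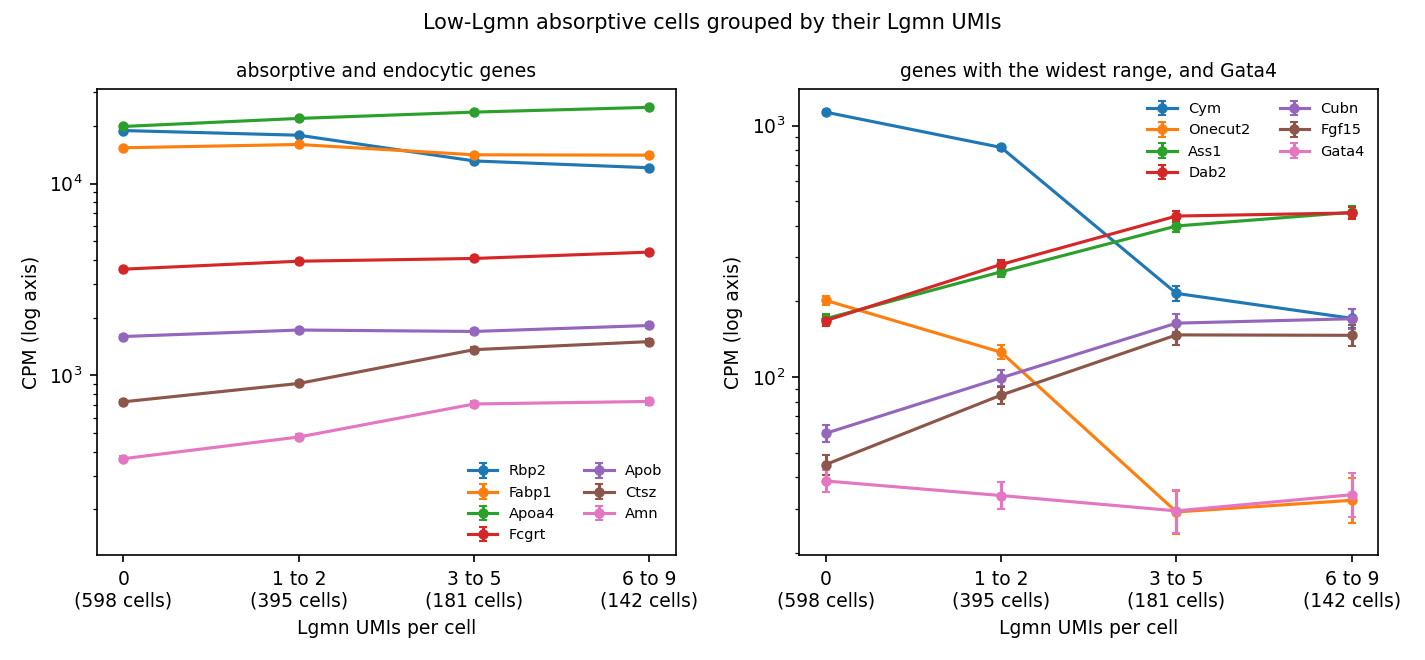
Levels (CPM, log axes) of 14 genes in the low-Lgmn absorptive cells split by the Lgmn UMIs of each cell (x axes; number of cells in brackets). Points are summed UMIs of the cells of a bin and bars are exact 95% Poisson intervals, smaller than the point for most genes. Onecut2 and Cym lie lowest in the 2 bins with the most Lgmn, where Dab2, Cubn, Ass1 and Ctsz lie highest.

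Within the low-Lgmn cells, Onecut2 and Fgf15 lay largely in different cells. At 2 or more UMIs, 566 of the 1316 cells (43%) held Onecut2 alone, 338 (25.7%) held Fgf15 alone, 38 (2.89%) held both and 374 (28.4%) neither. The 38 cells with both were deeper, with a median of 22294 UMIs against 17641 and 19209 in the cells with either gene alone. The cells with Onecut2 alone had 1422 CPM of Cym, 20730.3 of Rbp2 and 329 of Mme. Those with Fgf15 alone had 75, 11478 and 28.2 CPM of the same genes.

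The cells with Fgf15 alone also held more Dab2 (417 against 146 CPM) and more Lgmn (158 against 33.5 CPM). Their Apoa4 levels, 17829 and 22044 CPM, were closer to each other. By the same count, 45 of the Lgmn-high cells held Onecut2 alone, 451 Fgf15 alone, 24 both and 796 neither. These sets were drawn after the levels had been seen, from the same cells, and have no test.

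Clustering of the 1316 cells by themselves gave 9 clusters, which are numbered and not named. Clusters 1 and 4 (238 and 174 cells) were the richest in Rbp2 (23696 and 24947 CPM) and had high Mme (341 and 389). Cluster 1 was led by Gm5485, by the water channel gene Aqp8 (199 CPM against 52.3 in the other chosen cells) and by Serpina1b, whose RNA may be shared with close copies, and had the highest Cd36 (69.1 CPM). Cluster 4 was led by Tstd1, Cyp2d26 and Ltc4s and held 279 CPM of Onecut2 and 1602 CPM of Cym.

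Cluster 2 (212 cells) had the lowest Apoa4 (11911 CPM) and was led by Reg1, a secreted lectin (909 CPM against 63.1), 2210407C18Rik, Gstm3, Adh6a and the keratin Krt19 (1180.0 against 152 CPM). It also had the highest Onecut2 (295 CPM) and Cym (1661) and the lowest Dab2 (25). Cluster 6 (138 cells), led by Ndrg1 and Fgf15 (165 CPM), had high Anpep (800.0 CPM) and Ccl25 (833), the latter a chemokine of the small intestine that cluster 2 held at 947 CPM.

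Clusters 5 and 7 (139 and 135 cells) held the most Lgmn of the 9 (272 and 212 CPM). Cluster 5 had 5534 CPM of Ctsl against 926 in the other chosen cells, 7.42 CPM of Onecut2, and the highest Apoa4 (34026 CPM, against 32876 in cluster 1). Cluster 7 was led by Bcl2l15, Bex4 and Guca2a (1774 CPM against 279), held most of the Fabp6 (198 CPM, or 83.8 CPM without 1 cell that held 295 of its 505 UMIs, and 12.8 CPM or less elsewhere) and had the lowest Fabp1 (7596 CPM), Rbp2 (8486) and Onecut2 (2.36). Cluster 3 (189 cells) was led by Atf3 (459 CPM against 78.2), Ccn1, Klf6 and Egr1, genes that respond within minutes to stress, tissue dissociation included, and held 163 CPM of Fgf15.

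Clusters 8 and 9 (66 and 25 cells) stood apart in their markers of other cells. Cluster 8 was led by the crypt and cycling genes Olfm4 (864 CPM against 18.1), Gpx2 and Mki67, had a median of 26567.5 UMIs, and 77.3% of it was marked by Scrublet. Cluster 9 was led by the muscle and fibroblast genes Actg2, Adamdec1 and Postn, and 96.0% of it was marked; 1 of the 1316 cells held 223 of their 307 Actg2 UMIs. Without these 2 clusters, 219 genes were at least 2-fold higher and 448 at least 2-fold lower against the Lgmn-high cells, beside 219 and 420 with them.

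**Figure D4:**
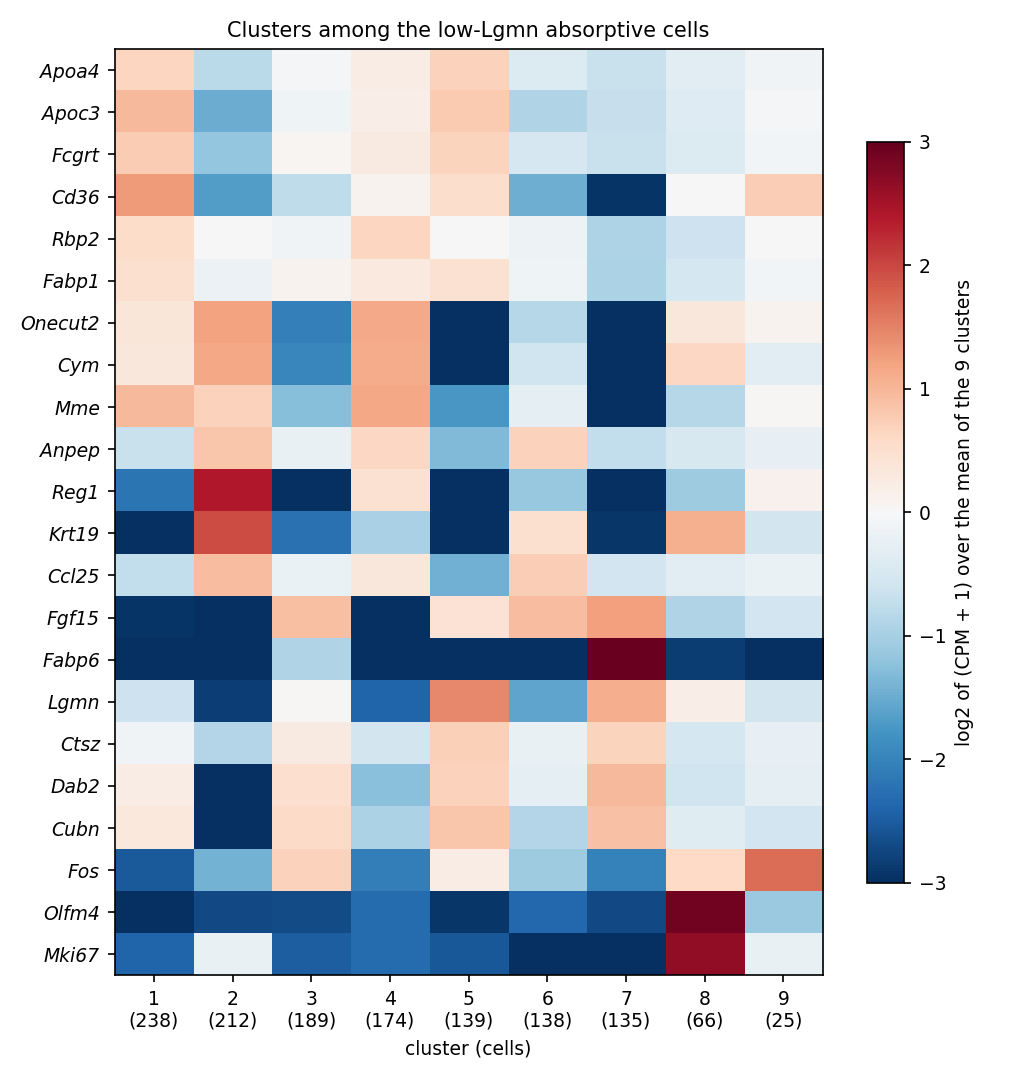
Levels of 22 genes (rows) in the 9 clusters of low-Lgmn absorptive cells (columns; number of cells in brackets), as log2 of CPM plus 1 over the mean of the clusters, with colours limited at −3 and 3. Onecut2 and Cym are high in clusters 2 and 4, Fgf15 in clusters 3, 5, 6 and 7, Fabp6 in cluster 7, where 1 cell held 295 of the 505 UMIs, and Olfm4 and Mki67 in cluster 8.

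The remaining 3731 epithelial cells held much RNA of goblet cells (11148 CPM over 8 markers) and of Paneth cells (7001 CPM over the 7 measured markers), and differ in the rule genes by construction. Of 7910 tested genes, 899 (11.4%) were at least 2-fold higher in the low-Lgmn absorptive cells and 1458 (18.4%) at least 2-fold lower, with a median log2 ratio of −0.20; with that median set to 1-fold, 1141 were higher and 1164 lower. Highest were Paqr9 (185 CPM against 4.77, 5.28, 5.10 to 5.46), Leap2, a peptide hormone that blocks the ghrelin receptor (4.92, 4.82 to 5.02), Apoc2 (4.92, 4.89 to 4.94), Mfsd2a (4.86), Slc2a2 (4.78), Fabp1 (4.73), Tdrp (4.70), F10, coagulation factor X (4.57), Pck1 (4.47) and Ltc4s (4.41). All of these except Apoc2, Fabp1 and Pck1 were below the CPM limit for the highest and lowest genes in the remaining cells. Those genes passed the limit only through the low-Lgmn cells and so had to differ. Leap2 and Paqr9 were under 2-fold apart between the low-Lgmn and the lipid-rich Lgmn-high cells (log2 ratios of 0.03 and 0.21).

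The lowest were products of goblet cells (Agr2 at −6.45, Tff3 at −6.24, Fcgbp at −5.99, Spink4 at −5.71), defensins of Paneth cells (Defa24 at −5.70 and Defa17 at −4.64, which have close copies), the hormone gene Sct (−4.58), and Fxyd3 (−5.87), Clps (−5.68) and Rnase1 (−4.73). All of these except Spink4 and Defa24 were below the same limit in the low-Lgmn cells. Those genes passed the limit only through the remaining cells and so had to differ. Of the lists, all 13 tested nutrient transporters and all 9 gluconeogenesis and fructose genes were at least 2-fold higher in the low-Lgmn cells, as were 14 of 16 apolipoprotein and assembly genes and 11 of 14 brush border hydrolases. Of the tested genes of these lists, 3 transporters, 1 gluconeogenesis and fructose gene and 1 hydrolase passed the filter only through the low-Lgmn cells and so had to differ. The remaining cells were those short of the lipid share (median 0.108%) or over the Muc2 or Chga+Chgb limit. Genes that vary with the lipid genes were thus bound to be higher in the low-Lgmn cells, and these counts are a description. The apolipoprotein list also holds Apoa4, which the rule reads. All 20 cell cycle genes were at least 2-fold lower, with a median of −3.54, and at least Mcm5 passed the filter only through the remaining cells.

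The same rule took 187 of 1677 epithelial cells at E17.5 (11.2%, exact Clopper-Pearson interval 9.68 to 12.8%), 1316 of 6363 at P7 (20.7%, 19.7 to 21.7%) and 0 of 1435 at E15.5, for which 3 counts would give a share of 0.209%, while the exact Clopper-Pearson interval of the 0 reaches 0.257%. Stage, library and animals cannot be told apart here. The E17.5 cells had a median of 18876 UMIs. They held more red blood cell RNA (3059 CPM over 8 genes, against 298 at P7), whose part in the values below was not tested. Their lipid carriers were high, as the rule in part requires: Fabp1 was at 27193 CPM at E17.5 and 15246 at P7, Rbp2 at 12044 and 16954, Apoa4 at 9044 and 21656, and Apob at 909 and 1676 CPM.

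Glucose-making genes were low at E17.5. Pck1 was at 66.8 CPM there and at 1125 at P7, Fbp1 at 50.5 and 682, and G6pc, the enzyme that releases free glucose, at 3.93 and 168 CPM. Fcgrt was at 963 and 3861 CPM, Cubn at 109 and 100.5, and Onecut2 at 165 and 133. In the other direction, the 15 sterol synthesis genes summed to 2116 CPM at E17.5 and 374 at P7, with Fdps at 621 and 66.2 CPM and Insig1, a sterol sensor, at 304 and 31.5. Ggt1, a gamma-glutamyltransferase, was at 161 and 20.1 CPM.

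**Figure D5:**
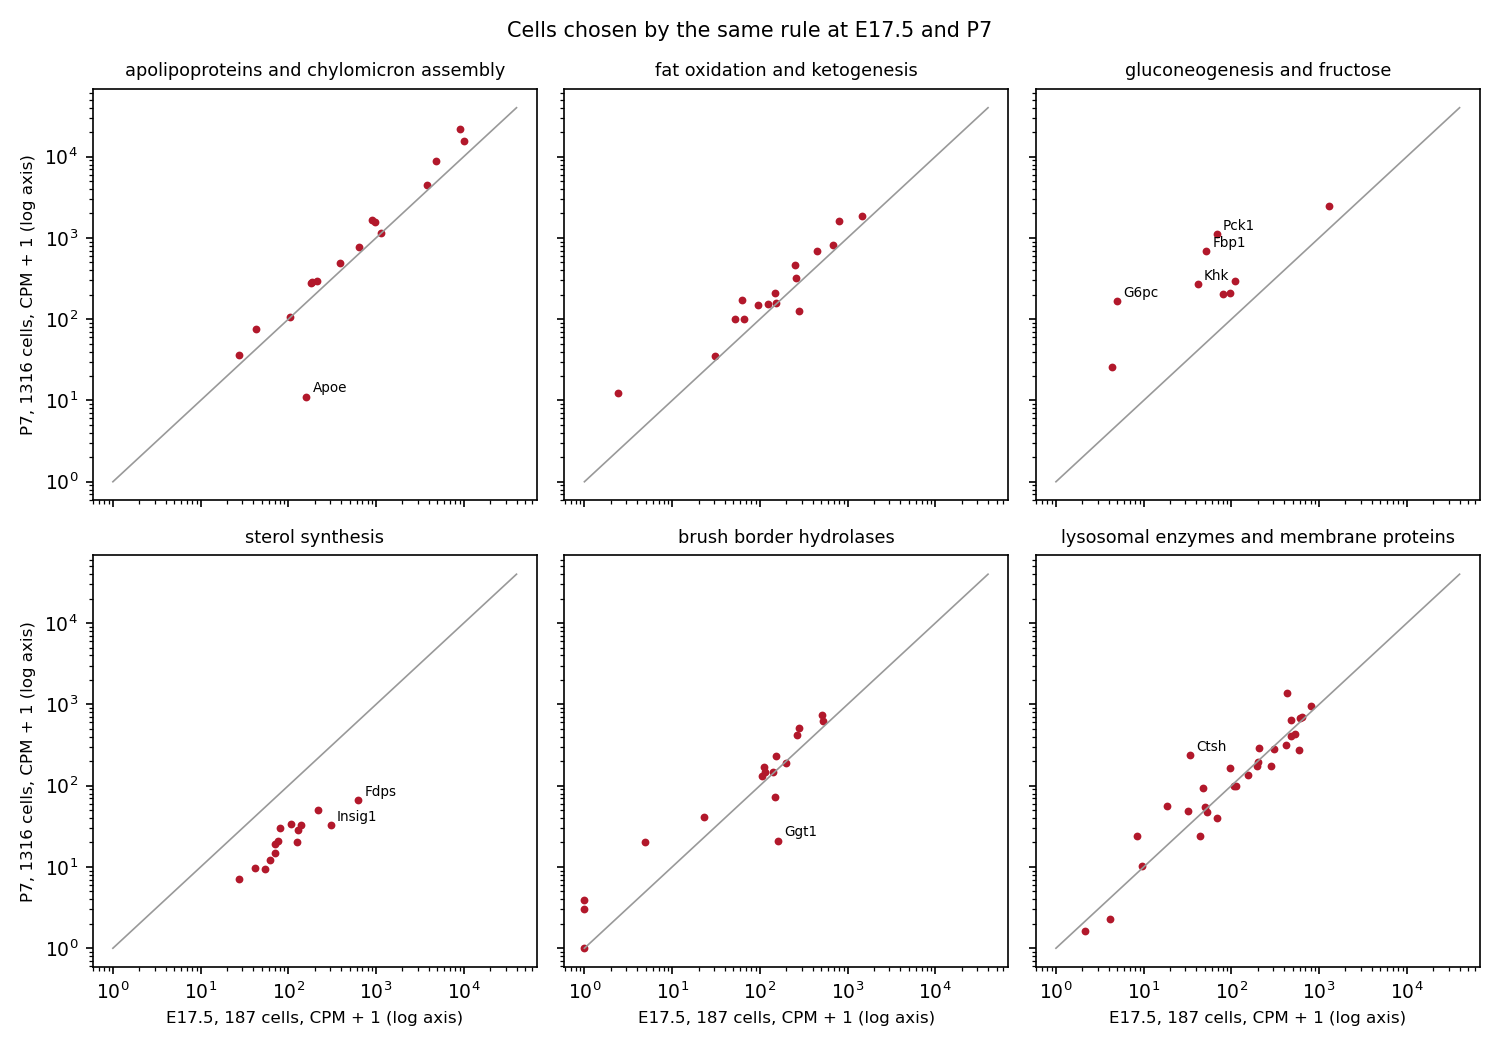
Levels of the genes of 6 lists in cells taken by the same rule at E17.5 (x axes, 187 cells) and at P7 (y axes, 1316 cells), as CPM plus 1 on log axes. Each point is a gene, the line marks equal levels, and named genes lie over 6-fold from it and above 20 on at least 1 axis. Sterol synthesis genes lie below the line and gluconeogenesis and fructose genes above it.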

How the data were processed

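UMIs were measured in cells of 3 libraries, 1 per stage. Counts had been made with Cell Ranger 7.2.0 on mm10 (GRCm38), per the submitters' processing notes, and the deposited values are whole-number UMI counts per gene and cell, not normalized. The authors' cell filter is not stated in any source used. The deposited cells held 501 to 6989 genes each.

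From these counts, UMIs were summed over the cells of each group and divided by the group's total to give CPM. Log2 ratios of CPM carry exact conditional binomial intervals and levels exact Poisson intervals, at 95%. A gene was tested against the 2-fold limit when the mean CPM of the pair of groups was at least 10. For a log2 ratio, a group with under 3 UMIs of a gene was taken at 3 UMIs. With 1 library no p-value was computed. UMIs number 24548645 in the chosen cells, so counting error was small beside the differences between cells and libraries, of which only the former is seen here.

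Named genes were the 10 highest and 10 lowest ratios with a mean of at least 50 CPM and UMIs in at least 25% of the cells of the higher group, without the genes of the rule; per list the highest and lowest, and those past 2-fold, up to 8 and otherwise the 8 with the highest mean CPM; and the markers. A few genes that this rule names are not reported here. Other genes of the lists were named after their values had been seen. The cells, the lists and the tests were chosen with earlier results of these data known. Clusters came from Leiden (scanpy 1.11.5, leidenalg 0.10.2, resolution 0.5) on 2000 variable genes and 20 components of the chosen cells, and doublets were scored with Scrublet at an expected rate of 6%. On simulated counts for 7387 genes, 95.0% of the intervals held the ratio put in. Those counts were drawn from the Poisson model that the intervals assume, with no spread between cells, so this checks the calculation only. Promoters came from RefSeq (GRCm38.p6) and gene models from GENCODE M21. Alternatives tried were the level filter, the limits of the rule, the scaling, doublet removal and the cluster resolution.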

Additional observations from a re-analysis of the deposited data

How the results depend on the processing

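All 20 genes named as highest or lowest against the Lgmn-high cells stayed past 2-fold, in the same direction, in all 14 settings. They were picked as the extremes in the same cells, which the settings largely reuse, so this was largely set by the choice of genes. Against those cells, 103 genes were at least 2-fold higher and 183 lower with a mean of at least 50 CPM, and 432 and 1137 with at least 1 CPM. Against the remaining epithelial cells, 474 were higher and 464 lower with at least 50 CPM, and 3471 were lower with at least 1 CPM. The rule took 7 cells at E15.5 with a lipid share of at least 1% and 88 at E17.5 with at least 4%. Resolution 1 gave 15 clusters. Fewer or more genes and cells enter under these limits by construction. Of single-gene values under an alternative, 159 moved beyond their counting interval and 153 did not, and of list medians 118 and 181. The medians for sterol synthesis and cholesterol uptake turned to 0.11 and 0.09 against the lipid-rich Lgmn-high cells, and that for cell cycle genes to −0.15 with a lipid share of at least 4%, where the cause was not tested; with fewer genes tested, at a mean of at least 50 CPM, that for retinoid handling turned to −0.11. The median for transcription factor genes of enterocytes ran from −0.03 to 0.15 over the settings. Without the highest cell of each group, chosen after seeing the data, the log2 ratios of Fabp6, Cck and Reg1 were −3.53, −2.98 and 2.21. No paired analysis was possible because each stage has 1 library. Rare RNAs, such as those under 3 UMIs in a group, are limited by depth, and spread between animals was not measured.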

Other observations

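Genes known from the villus base differed in both directions. Of 10 tested genes of the villus base list, 5 were at least 2-fold higher than in the Lgmn-high cells and 2 lower (median log2 ratio 0.93). Ccl25 was at 516 CPM against 76.1 (2.76, 2.69 to 2.83), Nlrp6, an inflammasome sensor, at 215 against 37.6 (2.51, 2.41 to 2.62), Lypd8, which keeps bacteria off the epithelium, at 4370.2 against 1539 (1.51, 1.49 to 1.52) and Reg1 at 188 against 64.4 (1.55, 1.47 to 1.63), and Gstm3 was the fifth. Of the Reg1 UMIs of the Lgmn-high cells 1 cell held 626 of 1580, and without the highest cell of each group the log2 ratio was 2.21. The lectin genes Reg3b (−2.06, −2.19 to −1.93) and Reg3g (−1.93, −2.14 to −1.73) were lower. Gstm3 passed the filter only through the low-Lgmn cells and Reg3g, at 9.86 CPM against 37.6, only through the Lgmn-high cells. Of 9 tested villus tip genes, Krt20 and Ephx2, an epoxide hydrolase (1.07, 1.01 to 1.12), were at least 2-fold higher, and Klf4 and Enpp3 (−5.01, −5.39 to −4.66) lower. Krt20 passed the filter only through the low-Lgmn cells and Enpp3 only through the Lgmn-high cells. Ada, an adenosine deaminase of the adult villus tip, was at 0.733 CPM. Of 10 villus base genes 5 were higher and 2 lower against the lipid-rich cells (median 0.85), and 1 of 9 villus tip genes was higher and 2 lower (median 0.26).

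Of 12 tested cell cycle genes 1 was at least 2-fold lower than in the Lgmn-high cells (Mcm5, at 4.03 against 16.3 CPM, −2.02, −2.35 to −1.70, which passed the filter only through the Lgmn-high cells) and none higher. Against the lipid-rich cells 3 of 11 were higher, Mki67 (1.21), Ube2c (1.26) and Top2a (1.31), and none lower (median 0.63), of which Mki67 and Top2a passed only through the low-Lgmn cells. Cluster 8, described above, holds crypt and cycling genes. Mki67 was at 142 CPM in it and 5.48 CPM in the other chosen cells, and Top2a at 157 and 6.22 CPM. The part of cluster 8 in these ratios was not tested. Of 14 tested dissociation and stress genes none passed 2-fold. RNA of other cell types was low in the chosen cells: summed levels were 155 CPM for 8 fibroblast genes (20529 in Epcam-negative cells), 104 for 8 smooth muscle genes (13268), 139 for the 7 measured Paneth cell genes (7001 in the remaining epithelial cells) and 1.18 for 8 tuft cell genes, with Il25 at 0. Of the endothelial markers Cdh5, Kdr, Cldn5 and Plvap were at 0, and of the immune markers Ptprc, Cd79a and Tyrobp. Haemoglobin RNA was at 7294 UMIs, of which 4 cells held 6919 (94.9%). The 8 pancreatic acinar genes summed to 259.9 CPM in the chosen cells, 488 in the lipid-rich Lgmn-high cells and 4511 in Epcam-negative cells, with Pnlip and Amy2a5 at 0 in the chosen cells. Try5, a trypsin gene, had UMIs in 0.684% of the chosen cells and a log2 ratio of −6.16 (−7.30 to −5.23) to the Lgmn-high cells, of which 0.532% held a UMI, so that ratio rests on few cells.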
